A study of Homo sapiens with 4 samples.

Results

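The ADAM, ADAMTS, ADAMTSL, MMP and TIMP genes of DAOY cells were taken as every symbol of the deposited gene count matrix that carries one of these family names followed by its number. The rule found 71 genes of 20363, made up of 22 ADAM, 19 ADAMTS, 5 ADAMTSL, 21 MMP and 4 TIMP genes. It used names only and no measured value. A gene was tested when at least 2 of the 4 libraries held at least 10 raw counts, and 54 of the 71 genes passed this filter, with 13 ADAM, 18 ADAMTS, 4 ADAMTSL, 15 MMP and 4 TIMP genes among them.

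DAOY is a human cerebellar medulloblastoma cell line, and the study asked how ZNF521, a zinc finger transcription co-factor, and SAG, an agonist of Smoothened that switches on the Sonic Hedgehog (SHH) pathway, alter its transcriptome. RNA was sequenced from ZNF521 cells with SAG, ZNF521 cells with the solvent DMSO, CTL cells with SAG and CTL cells with DMSO. Each group had 1 library. The methods describe the libraries as both poly-A-enriched and depleted of ribosomal RNA, made with a total RNA kit. ZNF521 cells overexpressed ZNF521, which the study's lentiviral vector expresses together with EGFP in a transduced pool and not in a single clone. For the CTL cells, the series calls them WT whereas the methods describe an empty control vector, so an effect of transduction cannot be told apart from that of ZNF521 if WT cells were sequenced. For SAG treatment the methods give 48 h after 24 h of starvation, at a dose that is not specified for the sequenced cells.

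Total counts lay between 12294833 and 16314685. The gene of the vector, ZNF521, had normalized counts of 2072 and 2013 in ZNF521 cells (SAG and DMSO), against 751.1 and 713.7 in CTL cells (log2 fold change 1.47, adjusted p = 0.00357 by edgeR's quasi-likelihood test). GLI1, the transcriptional readout of SHH signalling, had 318.1 and 324 in SAG libraries (ZNF521 and CTL), against 44.2 and 75.4 in DMSO libraries (log2 fold change 2.44, adjusted p = 0.00054 by the same test). Of the 9 granule neuron lineage markers, 6 passed the filter, with ZIC1 between 241 and 303, PAX6 between 294 and 307 and ZIC2 between 176 and 274 normalized counts, whereas ATOH1 did not exceed 1.13, BARHL1 2.06 and NEUROD1 8.44 in any library. Of the 8 immune markers in the count matrix, 2 passed the filter. PTPRC did not exceed 4.02 in any library, whereas CSF1R reached 56.3 in CTL cells with DMSO and TYROBP reached 49.6 in CTL cells with SAG. Summed normalized counts of 10 fibroblast and mesenchymal markers were 82795 and 83988 in ZNF521 cells (SAG and DMSO), against 89362 and 144009 in CTL cells, so that the sum was highest in CTL cells with DMSO. Of these 10 genes, 6 were highest in that library (FN1, COL1A1, COL1A2, COL3A1, PDGFRB and DCN), LUM and POSTN were lowest there, and VIM and THY1 were neither. In bulk RNA, fewer cells of a type and less RNA per cell cannot be told apart.

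ADAM genes encode membrane-anchored disintegrin metalloproteases that release the outer parts of growth factor ligands, receptors and adhesion molecules from the cell surface, whereas ADAMTS enzymes are secreted and carry thrombospondin repeats that hold them in the matrix, where they trim procollagens, cleave proteoglycans or act on microfibrils. ADAMTSL proteins resemble ADAMTS but lack the catalytic part. MMPs are zinc-dependent enzymes that degrade collagens, gelatin, laminin and other matrix proteins, and some of them stay on the membrane. The TIMPs are their natural inhibitors, and in tumours, medulloblastoma included, the balance between both groups is studied for its part in invasion.

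At the level of transcripts, TIMP1 stood above every other member, followed by MMP14, MMP2 and TIMP2. Levels are given here as CPM (raw counts scaled to the library total) per kilobase of annotated exons, as the mean of the 4 libraries with their lowest and highest value, because only a level per length can be compared between genes. TIMP1, a secreted inhibitor of most soluble MMPs, had 371.5 (355.4 to 403) and held 88.1% of the summed level of the 4 TIMP genes. TIMP2, which inhibits MMPs and also bridges pro-MMP2 to MMP14, followed with 29.5 (24.5 to 40.8). TIMP3, a matrix-bound inhibitor that also blocks ADAM17 and the aggrecanases, had 18.7 (17.4 to 20.04), and TIMP4 had 2.09 (1.19 to 3.68). The ranges of the TIMP genes did not overlap, so their order was the same in all 4 libraries.

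Among the MMPs, 2 genes held 87.3% of the summed level. MMP14 (MT1-MMP), the membrane collagenase that activates pro-MMP2, had 82.1 (72.9 to 104) and MMP2 (gelatinase A) had 43.1 (34.9 to 62.8), with ranges that did not overlap. MMP15 (MT2-MMP), a further transmembrane enzyme, was next at 5.92 (4.22 to 8.62). The secreted collagenases MMP1 and MMP13 and the stromelysin MMP3 stayed at 0.30, 0.57 and 0.44. The ADAM genes were led by ADAM15, an adhesion-linked enzyme whose tail binds Src family kinases, at 18.4 (16.5 to 20.8), by ADAM19, which sheds neuregulin, at 10.8 (8.40 to 14.5), and by ADAM10, the main alpha-secretase and Notch sheddase, at 5.60 (4.99 to 6.25). ADAM23, an ADAM without protease activity that binds LGI proteins, had 4.20, ADAM9 had 3.75 and ADAM17, the TNF-alpha converting enzyme, had 3.59, and the ranges of these 3 genes over the libraries overlapped.

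The ADAMTS genes were more even, and no gene held more than 18.7% of the summed level. ADAMTS1, a versican- and aggrecan-cleaving enzyme, had 6.75 (6.70 to 6.83). It was followed by ADAMTS2, the procollagen N-proteinase, at 3.73 (2.48 to 5.71) and by ADAMTS10, a fibrillin-associated enzyme, at 3.70 (2.92 to 4.93), whose ranges overlapped. Of the other procollagen N-proteinases, ADAMTS3 had 0.50 and ADAMTS14 had 0.23, and the classical aggrecanases ADAMTS4 and ADAMTS5 had 0.50 and 0.61. The ADAMTSL genes stayed below 1, with ADAMTSL5 at 0.72, ADAMTSL1 at 0.70 and ADAMTSL4 at 0.40. With the longest annotated transcript as the length, 13 of the 15 genes among the first 3 of their class kept that place, and ADAM9 and ADAMTS7 took the places of ADAM10 and ADAMTS2.

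**Figure D1:**
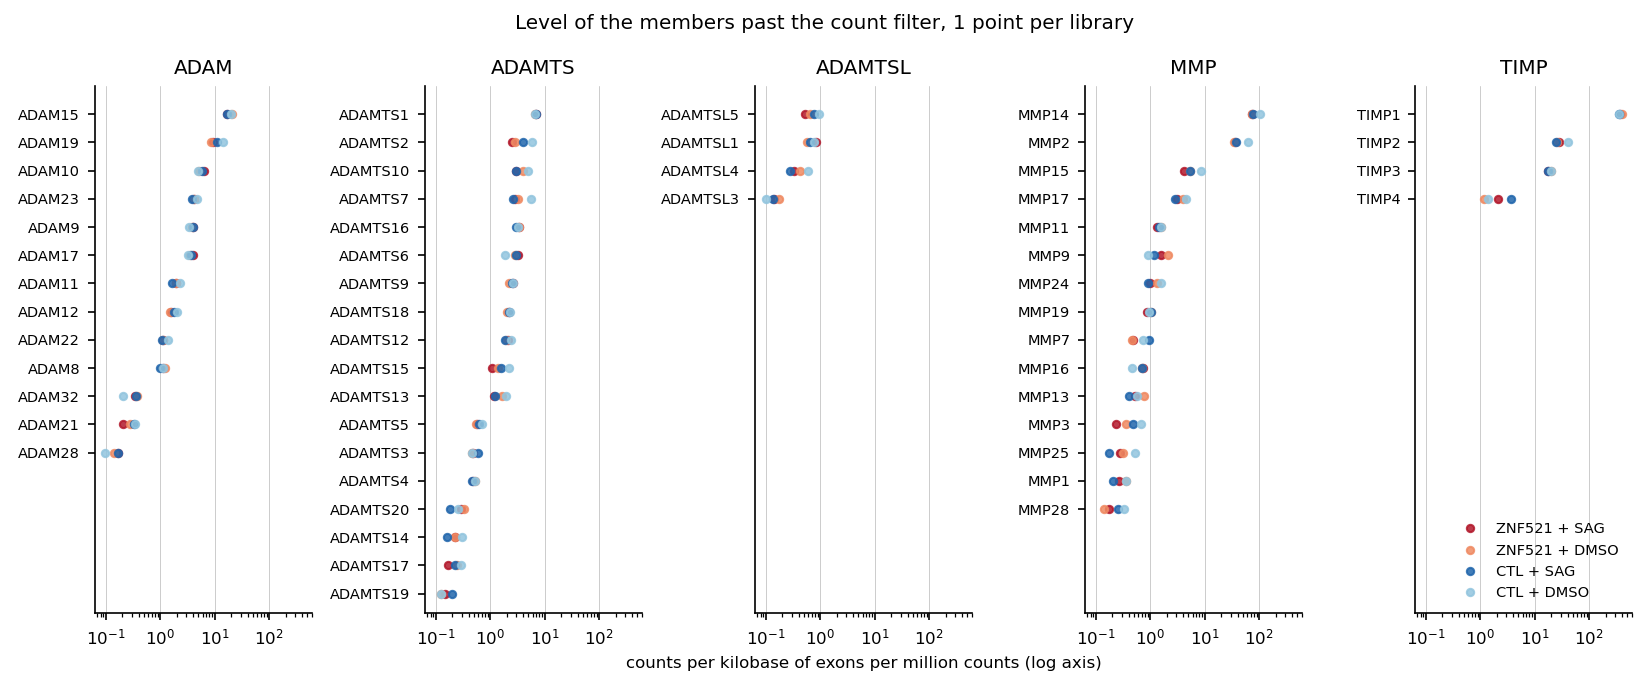
Level of the 54 tested genes in each library, as CPM per kilobase of exons on a log axis, with 1 point for each library and genes ordered within their class. TIMP1 stood at 355.4 to 403, MMP14 at 72.9 to 104 and ADAM15 at 16.5 to 20.8, while the points of most genes lay close to each other.

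The 17 genes below the filter were accounted for by class. ADAM2, ADAM7, ADAM18, ADAM20, ADAM29 and ADAM30, which are known from the reproductive tract, ADAM33, and ADAM5 and ADAM6, which are annotated as a pseudogene and a long non-coding RNA, did not exceed 13 raw counts in any library. ADAMTS8 did not exceed 7 and ADAMTSL2 did not exceed 8. MMP10 and MMP12 (stromelysin 2 and macrophage elastase), MMP20, MMP21, MMP23B and MMP27 did not exceed 11. Expression of these genes was not quantifiable at this depth.

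Promoters of 3 genes on which the following comparisons turn are shown, namely ADAMTS2, the gene with the smallest p-value of the family for ZNF521, TIMP4, that for SAG, and MMP14, the most abundant protease. They are the 250 bases before the RefSeq start on GRCh38.p14, 5′ to 3′ on the gene's strand, from chr5:179345462-179345711 (minus strand), chr3:12158913-12159162 (minus strand) and chr14:22836335-22836584 (plus strand). Capitals mark GC boxes, the letters GGGCGG or, on the other strand, CCGCCC.
ADAMTS2: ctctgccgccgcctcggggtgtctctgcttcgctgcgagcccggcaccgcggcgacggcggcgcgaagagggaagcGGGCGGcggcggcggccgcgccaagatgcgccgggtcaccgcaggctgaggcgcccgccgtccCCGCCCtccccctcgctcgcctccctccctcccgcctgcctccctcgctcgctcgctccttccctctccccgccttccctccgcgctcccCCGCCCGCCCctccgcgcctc
TIMP4: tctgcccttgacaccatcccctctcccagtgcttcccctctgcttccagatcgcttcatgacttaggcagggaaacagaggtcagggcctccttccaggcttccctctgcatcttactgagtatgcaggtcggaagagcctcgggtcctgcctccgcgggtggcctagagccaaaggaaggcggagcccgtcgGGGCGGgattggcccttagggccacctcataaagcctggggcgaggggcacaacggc
MMP14: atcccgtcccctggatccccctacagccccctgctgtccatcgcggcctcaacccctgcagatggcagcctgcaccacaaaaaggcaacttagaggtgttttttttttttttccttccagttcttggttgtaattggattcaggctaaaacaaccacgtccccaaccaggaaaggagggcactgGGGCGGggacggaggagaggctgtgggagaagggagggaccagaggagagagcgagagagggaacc

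The ADAMTS2 promoter had 80% GC and 4 GC boxes, 2 of which overlap, the TIMP4 promoter had 62.8% GC and 1 GC box, and the MMP14 promoter had 56.8% GC and 1 GC box. A promoter sequence was at hand for 33 of the 54 tested genes. The GC box was present in 28 of the 33 (84.8%), against 42.6% of all 35116 promoters of this length. The GLI site GACCACCCA, searched on both strands, was found in 1 of the 33, ADAMTSL4, against 0.199% of all promoters. The AP-1 site TGACTCA, also searched on both strands, was found in 1 of the 33, MMP7, against 4.2% of all promoters. These are matches of letters only. The 33 are 1 promoter for each tested gene, whereas the 35116 were not limited to tested genes or reduced to 1 for each gene. The shares therefore come from unlike sets, and no difference was tested.

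The first comparison asked how the family differed between ZNF521 cells and CTL cells, with treatment taken into account. ADAMTS2, ADAM19, ADAMTS15, MMP2, MMP15 and MMP7 were lower in ZNF521 cells, by 0.46 to 0.86 on the log2 scale, and MMP9 was higher by 0.82. A gene is named as called where the unadjusted p of edgeR's quasi-likelihood test did not exceed 0.05. Of 54 genes, 6 were called lower and 1 was called higher, or 11.1% and 1.85%, against 3.11% and 2.36% of the 14970 genes tested. None of the 54 passed an adjusted p of 0.05, a threshold passed by 0.00668% of all genes upwards and by 0 downwards. The fitted values were lower than in CTL cells for 35 genes and higher for 19, and their median log2 fold change was -0.09, beside -0.00 over all genes, of which 50.6% had a value below 0. By class, the median was 0.04 for ADAM, -0.13 for ADAMTS, -0.10 for ADAMTSL, -0.10 for MMP and -0.15 for TIMP genes.

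ADAMTS2 (ENSG00000087116, chr5:179110853-179345461, minus strand, hg38), which removes the N-terminal propeptide of fibrillar procollagens, had the smallest p-value. It had 305 and 345 normalized counts in ZNF521 cells (SAG and DMSO), against 492 and 693 in CTL cells. Both ZNF521 libraries were below both CTL libraries, and within each kind of cell the SAG library was the lower one. The fitted log2 fold change was -0.86 with a standard error (SE) of 0.17 (adjusted p = 0.368 by edgeR). Within SAG the ratio was 0.621 (95% counting interval 0.539 to 0.716) and within DMSO it was 0.498 (0.435 to 0.568), where the interval covers counting error only. ADAMTS2 stayed called under the 8 alternative settings that kept all libraries, with log2 fold changes of -0.88 to -0.79. With a library left out it lay at -1.11 to -0.59, in fits that hold only 1 factor and so mix in the other. Its adjusted p by edgeR was 0.027 with a GC offset and 0.00136 with no filter. Those settings passed 14 of 14970 and 100 of 20363 genes, against 1 of 14970 as fitted. In the other settings with all libraries it lay between 0.290 and 0.9995.

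ADAM19 and ADAMTS15, a versican-cleaving enzyme, were also lower in ZNF521 cells. ADAM19 had 986 and 890.1 normalized counts in ZNF521 cells (SAG and DMSO), against 1162 and 1509 in CTL cells, without overlap of the groups (log2 fold change -0.51, SE 0.17, adjusted p = 0.850 by edgeR). ADAMTS15 had 89.4 and 113 in ZNF521 cells (SAG and DMSO), against 132 and 181 in CTL cells, again without overlap (log2 fold change -0.63, SE 0.20, adjusted p = 0.812 by edgeR). In both genes CTL cells with DMSO were the highest library, and the ratio of ADAM19 was 0.849 (0.780 to 0.924) within SAG and 0.590 (0.542 to 0.642) within DMSO. Neither gene was called by edgeR when the CTL DMSO, the ZNF521 DMSO or the ZNF521 SAG library was left out, where the log2 fold change of ADAM19 was -0.30, -0.44 and -0.60 and that of ADAMTS15 was -0.38, -0.81 and -0.49.

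The matrix metalloproteases called in this comparison were MMP2, MMP15, MMP7 and MMP9. MMP2 had 2371 and 2257 normalized counts in ZNF521 cells (SAG and DMSO), against 2484 and 4003 in CTL cells (log2 fold change -0.46, SE 0.18, adjusted p = 0.893 by edgeR). MMP15 had 246 and 314 in ZNF521 cells (SAG and DMSO), against 320.3 and 494 in CTL cells (log2 fold change -0.53, SE 0.17, adjusted p = 0.812 by edgeR). The groups did not overlap for either gene, but the difference of MMP2 lay almost wholly in DMSO, where the ratio was 0.564 (0.535 to 0.594), while within SAG it was 0.954 (0.902 to 1.01). Without the CTL DMSO library, the log2 fold change was -0.10 for MMP2 and -0.20 for MMP15, and neither was called by edgeR, nor were they without either ZNF521 library (-0.46 and -0.73 without ZNF521 DMSO, -0.54 and -0.39 without ZNF521 SAG).

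MMP9 (gelatinase B), the only member called higher in ZNF521 cells, had 50.6 and 67.9 normalized counts in ZNF521 cells (SAG and DMSO), against 38.3 and 28.1 in CTL cells (log2 fold change 0.82, SE 0.30, adjusted p = 0.893 by edgeR). The groups did not overlap, and ZNF521 cells with DMSO were the highest library. The secreted matrilysin MMP7 had 15.2 and 14.4 in ZNF521 cells (SAG and DMSO), against 30.4 and 23.1 in CTL cells, without overlap but at low counts (log2 fold change -0.86, SE 0.38, adjusted p = 0.907 by edgeR). MMP9 was not called by edgeR without the CTL DMSO or the ZNF521 DMSO library (0.62 and 0.61), and MMP7 was not without the CTL SAG, the ZNF521 DMSO or the ZNF521 SAG library (-0.65, -0.81 and -0.90). An antisense RNA, SLC12A5-AS1, shares 18.4% of the exon bases of MMP9 on the opposite strand. The library kit was strand-specific, but the sources used here do not say whether STAR's counting used strand, so whether reads of both genes were kept apart is not known.

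Neither the dominant protease nor the dominant inhibitor passed the test. MMP14 had 4676 and 4637 normalized counts in ZNF521 cells (SAG and DMSO), against 4998 and 6509.6 in CTL cells (log2 fold change -0.30, SE 0.17, adjusted p = 0.952 by edgeR). TIMP1 had 7340.0 and 8011 in ZNF521 cells (SAG and DMSO), against 7126 and 7031 in CTL cells (log2 fold change 0.10, SE 0.16). Both genes had groups without overlap, in opposite directions. Within SAG the ZNF521 over CTL ratio was 0.936 (0.899 to 0.974) for MMP14 and 1.03 (0.997 to 1.06) for TIMP1. Within DMSO it was 0.712 (0.686 to 0.740) for MMP14 and 1.14 (1.10 to 1.18) for TIMP1. TIMP2 had 2348 and 2147 in ZNF521 cells (SAG and DMSO), against 2107 and 3432 in CTL cells, and TIMP3 had 1103 and 1241, against 1121 and 1247, with log2 fold changes of -0.27 and -0.03 (SE 0.19 and 0.15). The TIMP2 ratio was 1.11 (1.05 to 1.18) within SAG and 0.626 (0.592 to 0.661) within DMSO, so the values of its groups overlapped.

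The sheddases ADAM10, ADAM17 and ADAM9 were not called between the cells, unlike ADAM19. ADAM10 had 1374 and 1147 normalized counts in ZNF521 cells (SAG and DMSO), against 1312 and 1081 in CTL cells, with a log2 fold change of 0.07 (SE 0.15). ADAM17 had 879 and 760.4, against 805 and 707, with 0.11 (SE 0.15), and ADAM9 had 967 and 923, against 971 and 792, with 0.10 (SE 0.15). The groups overlapped for all 3 genes. ADAM15 had 1509 and 1880.0 in ZNF521 cells (SAG and DMSO), against 1502 and 1760.1 in CTL cells, and ADAMTS1 had 687 and 674, against 685 and 662, with log2 fold changes of 0.04 and 0.00 (SE 0.14 and 0.15). Over all 54 genes, the groups did not overlap in 7 genes upwards (13%) and in 13 genes downwards (24.1%), against 13.3% and 13% of all genes.

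**Figure D2:**
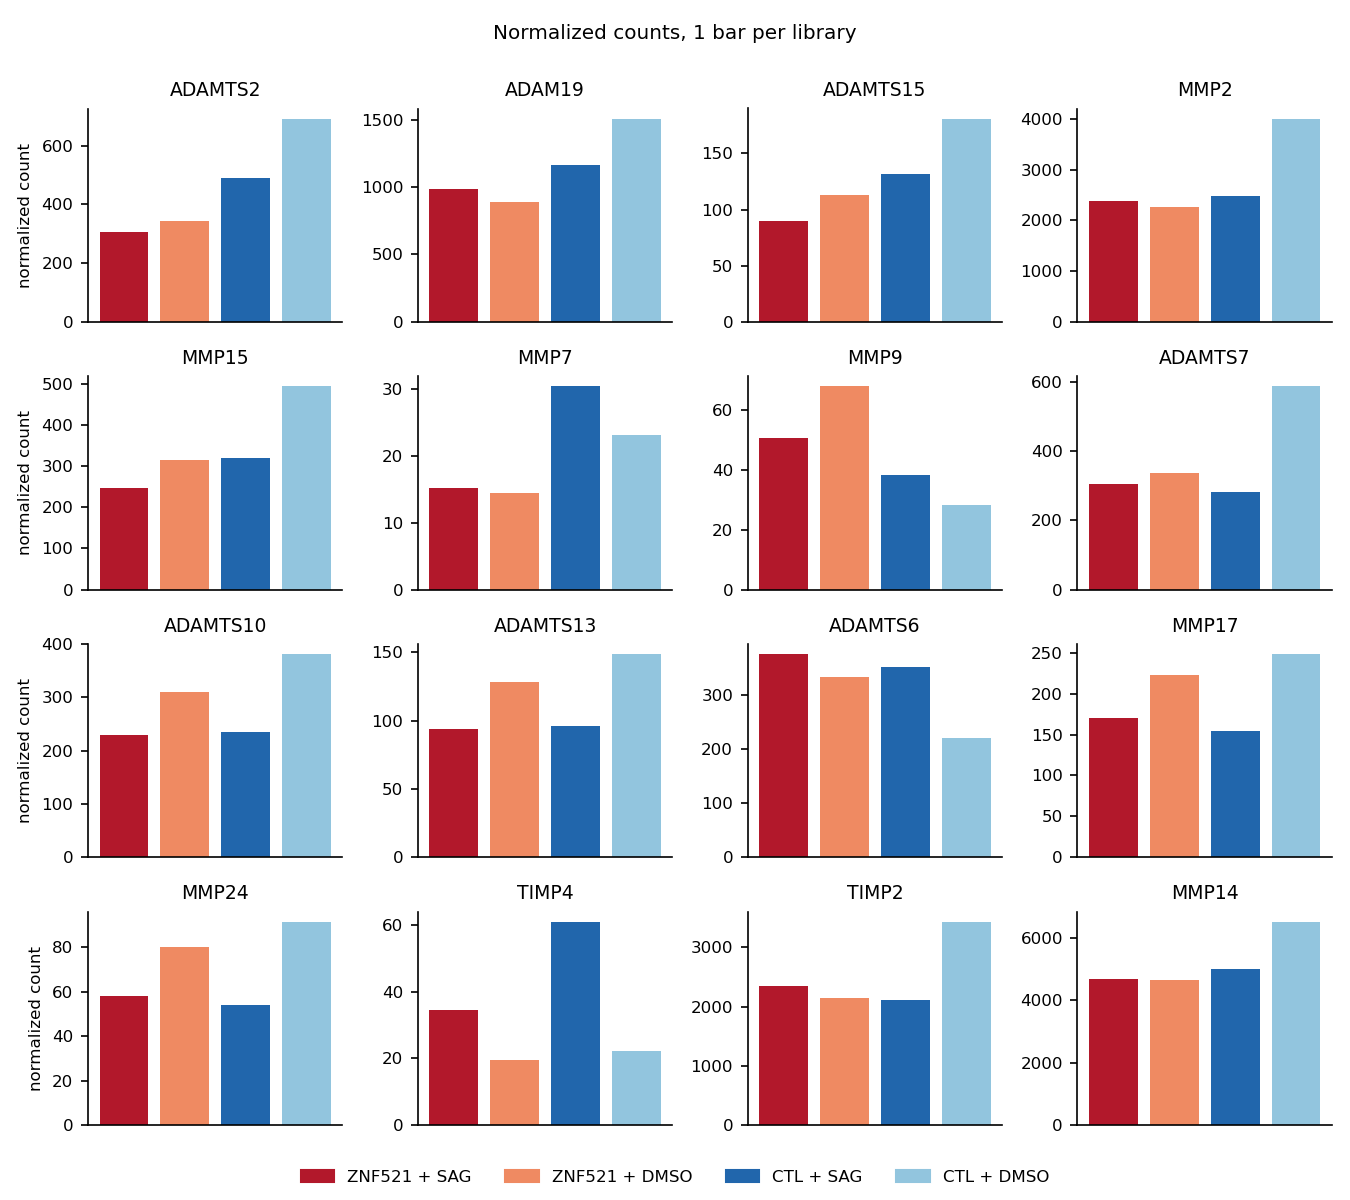
Normalized counts of 16 genes in each of the 4 libraries, with 1 bar for each library, each axis starting at 0 and no error bars since each group has 1 library. ADAMTS2 stood at 305 and 345 in ZNF521 cells and at 492 and 693 in CTL cells, while TIMP4 stood at 34.6 and 60.9 with SAG and at 19.6 and 22.1 with DMSO.

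The second comparison asked how the family differed between SAG and DMSO, with the kind of cell taken into account. TIMP4 and ADAMTS6 were higher with SAG, and ADAMTS7, ADAMTS10, ADAMTS13, MMP15, MMP17 and MMP24 were lower, by the same call. That was 6 lower (11.1%) and 2 higher (3.7%) of 54, against 5.12% and 6.21% of the 14970 genes tested. None passed an adjusted p of 0.05, which 0.0401% of all genes passed upwards and 0 downwards. The fitted values were lower with SAG for 39 genes and higher for 15, and the median log2 fold change was -0.14, beside 0.00 over all genes, of which 49.9% were below 0. The class medians were -0.12 for ADAM, -0.12 for ADAMTS, -0.15 for ADAMTSL, -0.31 for MMP and -0.11 for TIMP genes, and among the MMPs 13 of 15 were below 0.

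TIMP4 (ENSG00000157150, chr3:12153068-12158912, minus strand, hg38), an inhibitor best known from heart and brain, had 34.6 and 60.9 normalized counts with SAG (ZNF521 and CTL), against 19.6 and 22.1 with DMSO. Both SAG libraries were above both DMSO libraries, and CTL cells with SAG were the highest. The log2 fold change was 1.16 with an SE of 0.33 (adjusted p = 0.391 by edgeR), and the ratio was 1.77 (1.004 to 3.23) in ZNF521 cells and 2.75 (1.65 to 4.75) in CTL cells. For ZNF521 over CTL its log2 fold change was -0.58 (SE 0.32). TIMP4 lies within SYN2 on the opposite strand and shares 14.2% of its exon bases with it, and whether the counting kept the pair apart by strand is not known. The adjusted p of TIMP4 by edgeR was 0.0346 with no filter, a setting that passed 223 of 20363 genes, against 6 of 14970 as fitted. Without the CTL SAG library its log2 fold change was 0.73 and the gene was not called.

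ADAMTS6 and ADAMTS10, a homologous pair that acts on fibrillin microfibrils, had fitted values in opposite directions. ADAMTS6 had 376 and 353 normalized counts with SAG (ZNF521 and CTL), against 334 and 220.1 with DMSO (log2 fold change 0.42, SE 0.18, adjusted p = 0.412 by edgeR). ADAMTS10 had 229 and 236 with SAG, against 311 and 381 with DMSO (log2 fold change -0.56, SE 0.17, adjusted p = 0.391 by edgeR). Neither had overlapping groups, but the 1.60-fold ratio of ADAMTS6 in CTL cells (1.34 to 1.91) stood beside 1.13 (0.973 to 1.30) in ZNF521 cells. The transcripts of these genes differ in GC content, with 42.5% for ADAMTS6 and 65.2% for ADAMTS10. ADAMTS6 was not called without the CTL DMSO, the CTL SAG or the ZNF521 SAG library (0.12, 0.44 and 0.35), nor ADAMTS10 without the ZNF521 SAG library (-0.55).

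ADAMTS7, which cleaves cartilage oligomeric matrix protein, had 305 and 282 normalized counts with SAG (ZNF521 and CTL), against 338 and 586 with DMSO (log2 fold change -0.60, SE 0.21, adjusted p = 0.391 by edgeR). ADAMTS13, the protease of von Willebrand factor, had 93.6 and 95.9 with SAG, against 129 and 149 with DMSO (log2 fold change -0.54, SE 0.20, adjusted p = 0.391 by edgeR). Both had groups without overlap. For ADAMTS7 the ratio was 0.902 (0.775 to 1.05) in ZNF521 cells and 0.481 (0.413 to 0.559) in CTL cells, whereas for ADAMTS13 it was 0.728 (0.559 to 0.948) and 0.644 (0.488 to 0.847). Without the CTL DMSO library the log2 fold change of ADAMTS7 was -0.21, and it was not called there or without the CTL SAG library (-0.60), nor was ADAMTS13 without the CTL SAG or the ZNF521 SAG library (-0.57 and -0.53).

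All 3 MMPs called with SAG are membrane-type enzymes, MMP15 and MMP24 with a transmembrane segment and MMP17 with a glycosylphosphatidylinositol anchor. MMP15 had 246 and 320.3 normalized counts with SAG (ZNF521 and CTL), against 314 and 494 with DMSO (log2 fold change -0.49, SE 0.17, adjusted p = 0.391 by edgeR). MMP17 had 170.4 and 154 with SAG, against 222 and 248 with DMSO (log2 fold change -0.53, SE 0.18, adjusted p = 0.391 by edgeR). MMP24 had 58.2 and 54.1 with SAG, against 80.3 and 91.5 with DMSO (log2 fold change -0.60, SE 0.24, adjusted p = 0.40 by edgeR). The groups of MMP17 and MMP24 did not overlap, while those of MMP15 did, since CTL cells with SAG stood just above ZNF521 cells with DMSO. The other GPI-anchored enzyme, MMP25, had 17.7 and 11.3 with SAG, against 20.6 and 33.2 with DMSO, and the transmembrane MMP16 had 124 and 117, against 118 and 74.4, with log2 fold changes of -0.84 (SE 0.42) and 0.34 (SE 0.22) that did not pass. MMP15 was not called without the CTL DMSO or the ZNF521 SAG library (-0.17 and -0.34), MMP17 without the CTL SAG or the ZNF521 SAG library (-0.47 and -0.61), and MMP24 without the CTL DMSO, the CTL SAG or the ZNF521 SAG library (-0.52, -0.56 and -0.66). The antisense gene MMP24OS shares 18.4% of the exon bases of MMP24, and the antisense RNA MMP25-AS1 shares 30.6% of those of MMP25.

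MMP14, MMP2, TIMP1, TIMP2 and TIMP3 did not pass for SAG, with log2 fold changes of -0.18, -0.31, -0.05, -0.29 and -0.16 (SE 0.17, 0.18, 0.16, 0.19 and 0.15). The ADAM sheddases had values of 0.27 for ADAM10, 0.20 for ADAM17, 0.18 for ADAM9 and -0.27 for ADAM15 (SE 0.15, 0.15, 0.15 and 0.14), and none passed. ADAM10, ADAM17 and ADAM9 were higher in both SAG libraries than in both DMSO libraries, and ADAM15 was lower in both. The transcripts of ADAM10, ADAM17 and ADAM9 have 37.5% to 38.5% GC and that of ADAM15 has 63.9%. With the offset for GC content described below, the values of ADAM10, ADAM17, ADAM9 and ADAM15 were -0.00081, -0.047, -0.091 and -0.017. Over the 54 genes, the groups did not overlap in 9 genes upwards (16.7%) and in 17 genes downwards (31.5%), against 25.4% and 22.7% of all genes.

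The other members were not called in either comparison and are given by their role, with examples. ADAM11, ADAM22 and ADAM23, neuronal surface proteins without protease activity, had log2 fold changes of 0.0085, -0.15 and -0.043 for ZNF521 over CTL and of -0.23, -0.13 and -0.16 for SAG over DMSO (SE 0.16 to 0.21). The procollagen N-proteinases beside ADAMTS2 had -0.16 (ADAMTS3) and -0.036 (ADAMTS14) for ZNF521 over CTL and 0.27 and -0.44 for SAG over DMSO (SE 0.27 and 0.42). Neither was called, so that ADAMTS2 was the only called procollagen N-proteinase, and the difference between these genes was not tested. The aggrecanases ADAMTS4 and ADAMTS5 had 0.0065 and -0.25 for ZNF521 over CTL and -0.14 and -0.064 for SAG over DMSO (SE 0.24 and 0.23), and ADAMTS9, which cleaves versican, had -0.077 and 0.12 (SE 0.17).

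The secreted collagenases and stromelysin were rare, with no more than 29.8 normalized counts in any library. MMP1 had 10.1 and 13.4 normalized counts in ZNF521 cells (SAG and DMSO), against 7.89 and 13.1 in CTL cells, MMP13 had 20.2 and 29.8, against 15.8 and 22.1, and MMP3 had 5.91 and 9.26, against 12.4 and 17.1. MMP3 was lower in both ZNF521 libraries than in both CTL libraries, but was not called (log2 fold change -0.97, SE 0.50). Of the ADAMTSL genes, ADAMTSL5 had 26.2 and 31.9 normalized counts in ZNF521 cells (SAG and DMSO), against 38.3 and 47.2 in CTL cells (log2 fold change -0.57, SE 0.30). ADAMTSL1 had 152 and 107 in ZNF521 cells, against 122 and 138 in CTL cells, and ADAMTSL4 had 29.5 and 37.0, against 24.8 and 51.3, both with overlapping groups. For SAG over DMSO the log2 fold changes of ADAMTSL5, ADAMTSL1 and ADAMTSL4 were -0.29, 0.17 and -0.67 (SE 0.30, 0.22 and 0.32), and none was called.

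The ratios within pairs of libraries located most of the larger differences in CTL cells with DMSO. In 35 of the 54 genes the normalized counts averaged 50 or more. Among them, a ratio of at least 1.5-fold whose counting interval excluded 1 was present for ZNF521 over CTL in DMSO in 7 genes downwards and 2 upwards, or 20% and 5.71%, against 5.48% and 4.96% of all genes of that mean count. In SAG, the same comparison had 1 gene downwards, ADAMTS2, and 0 upwards, or 2.86% and 0%, against 0.529% and 0.728%. SAG over DMSO gave 0 genes in ZNF521 cells in either direction, against 0.777% downwards and 0.628% upwards. In CTL cells it gave 8 downwards and 2 upwards, or 22.9% and 5.71%, against 6.85% and 7.65%. These comparisons share libraries, so their counts are not independent of each other, and with 1 library for each group the ratios have no test.

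**Figure D3:**
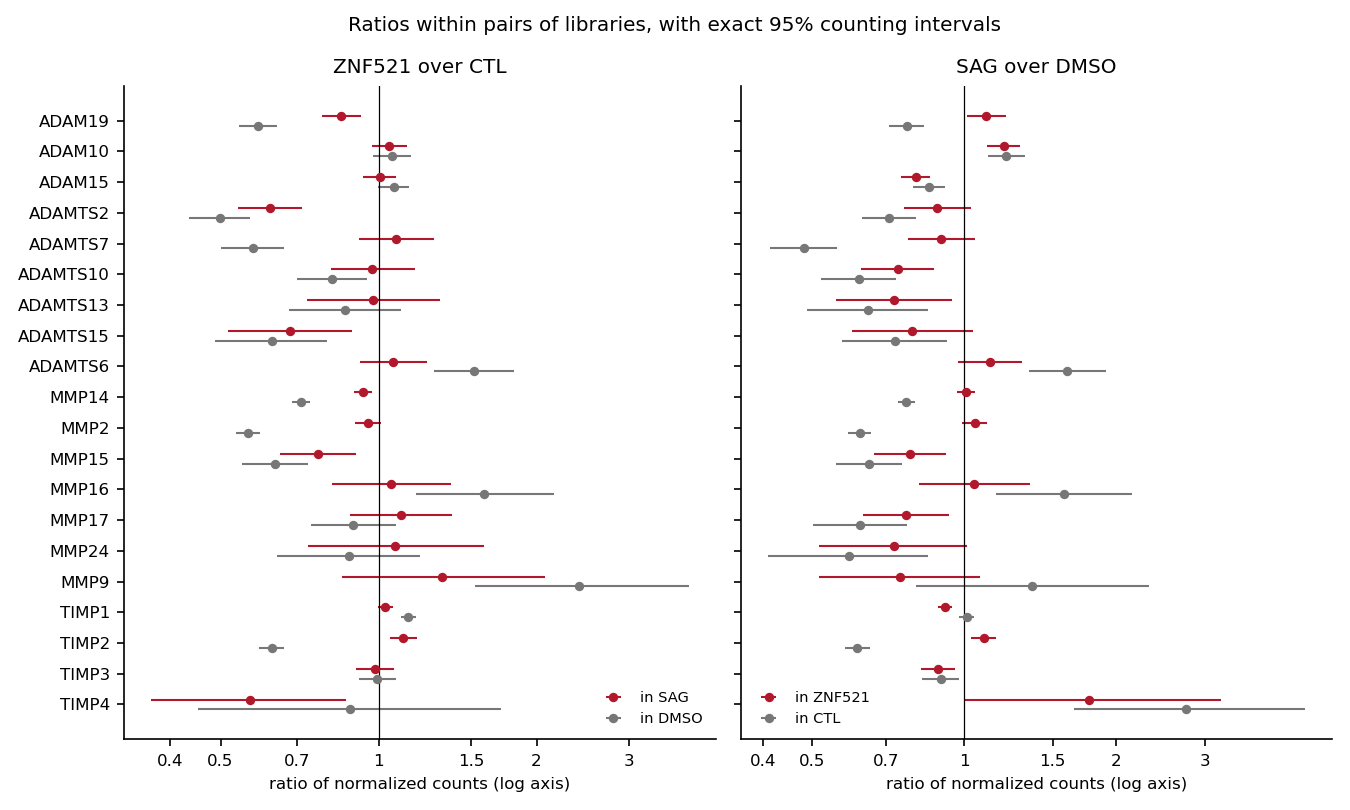
Ratio of normalized counts within pairs of libraries for 20 genes on a log axis, for ZNF521 over CTL at the left and SAG over DMSO at the right, with exact 95% counting intervals as lines. For MMP2, ZNF521 over CTL was 0.954 in SAG and 0.564 in DMSO, and SAG over DMSO was 1.05 in ZNF521 cells and 0.621 in CTL cells.

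The genes downwards for ZNF521 in DMSO were ADAM19, ADAMTS2, ADAMTS7, ADAMTS15, MMP2, MMP15 and TIMP2, and those downwards for SAG in CTL cells were ADAMTS7, ADAMTS10, ADAMTS13, MMP2, MMP15, MMP17, MMP24 and TIMP2. ADAMTS6 and MMP16 were the genes upwards in both. TIMP2 and MMP2, partners of MMP14 on the cell surface, had 3432 and 4003 normalized counts in CTL cells with DMSO, while the other 3 libraries held 2107 to 2348 TIMP2 and 2257 to 2484 MMP2 counts. MMP2 exceeded every other library by at least 1.61-fold in CTL cells with DMSO, ADAMTS7 by 1.74-fold and MMP15 by 1.54-fold. These are 3 of 35 genes (8.57%), against 3.48% of all genes of that mean count, and ADAMTS6 and MMP16 lay at least 1.5-fold below each other library (5.71%, against 3.19%). CTL cells with DMSO were the highest library for 30 of the 54 genes (6 ADAM, 11 ADAMTS, 2 ADAMTSL, 9 MMP and 2 TIMP), or 55.6%, against 34.5% of all genes. Summed over the class, normalized counts of the MMPs were 7937 and 7978 in ZNF521 cells (SAG and DMSO), against 8436 and 11753 in CTL cells, and those of the TIMPs were 10825 and 11419, against 10414 and 11733. The summed fibroblast and mesenchymal markers, at 144009 in CTL cells with DMSO and 82795 to 89362 in the other libraries, were highest in the same library, with 6 of the 10 genes highest there and LUM and POSTN lowest, and their part in these values was not tested.

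The differences between SAG and DMSO also went with the GC content of the transcripts, in GC-rich genes more than in GC-poor ones. All 17 genes with at least 60% GC in their longest transcript had a lower fitted value with SAG, with a median log2 fold change of -0.44, and 6 of the 17 (35.3%) were called lower. Of the 2048 genes of the whole table with such GC content, 90.4% had a lower value and 20.3% were called lower. The 17 genes under 45% GC had 9 higher and 8 lower values with a median of 0.18, and 1 of them was called higher, whereas of all 5577 genes of that GC content 82.9% had a higher value and 14.9% were called higher. For ZNF521 over CTL, 13 of the 17 GC-rich genes had a lower value and 2 (11.8%) were called lower, against 69.9% and 7.76% of all genes of that GC content. Of the 17 GC-poor genes, 10 had a higher value and 0 were called higher, against 67.7% and 3.78%. The 6 genes called lower with SAG lay between 60.4% (MMP24) and 68.7% GC (MMP17), whereas TIMP4 had 53.1% and ADAMTS2 57.5%.

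With an offset that removes the smooth dependence on GC content in each library, and with it by construction any effect of SAG that goes with GC, 1 gene was still called with SAG. This was TIMP4, at a log2 fold change of 1.26 (adjusted p = 0.313 by edgeR). ADAMTS10 was at -0.29, ADAMTS7 at -0.32, ADAMTS13 at -0.29, MMP15 at -0.21, MMP17 at -0.20, MMP24 at -0.40 and ADAMTS6 at 0.27, and none of these 7 was called. Of the 17 GC-rich genes, 12 were then lower and 5 higher with SAG, with a median of -0.20. For ZNF521 over CTL the 7 called genes all stayed called with the offset, with ADAMTS2 at -0.79 and MMP9 at 0.91.

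**Figure D4:**
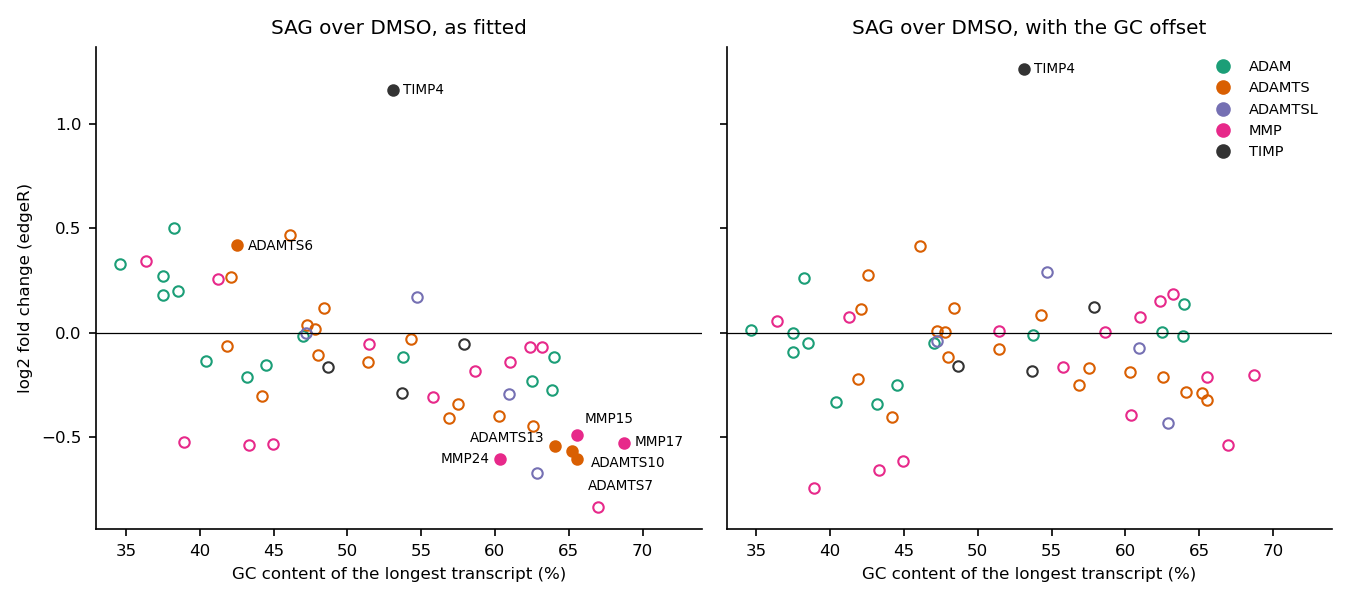
Log2 fold change of SAG over DMSO from edgeR for the 54 tested genes, plotted against the GC content of the longest transcript in percent, as fitted at the left and with the GC offset at the right. Filled points are the called genes, 8 as fitted and 1 with the offset, TIMP4 at 1.26.

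Cofactors, substrates and regulators of these enzymes were examined in 6 lists of 81 genes, of which 72 passed the filter. For ZNF521 over CTL, 8 were called lower and 0 higher by edgeR, or 11.1% and 0%, against 3.11% and 2.36% of all genes tested, with a median log2 fold change of -0.14, and none passed an adjusted p of 0.05. The called collagens included COL3A1 at -0.65 (SE 0.19) and COL1A1 at -0.76 (SE 0.31), while COL1A2, at -0.41 (SE 0.20), was not called, and BMP1, the procollagen C-proteinase, was at -0.43 (SE 0.16). COL1A1 had 5316 and 5241 normalized counts in ZNF521 cells (SAG and DMSO), against 4913 and 15912 in CTL cells, so the groups overlapped and only CTL cells with DMSO stood apart. The inhibitor A2M (alpha-2-macroglobulin) was at -0.86 (SE 0.24), THBS1 (thrombospondin 1) at -0.75 (SE 0.18) and LRP1, an endocytic receptor that clears MMP and TIMP complexes, at -0.64 (SE 0.25).

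With SAG, 5 of the 72 were called higher (6.94%) and 9 lower (12.5%), against 6.21% and 5.12% of all genes tested, with a median of -0.15, and again none passed the adjusted threshold. Of the shed ADAM substrates and ligands, 3 were called lower, NOTCH1 (-0.52, SE 0.19), NOTCH3 (-0.75, SE 0.25) and L1CAM (-0.78, SE 0.25), and 2 were called higher, TGFA (0.41, SE 0.16) and IL6R (0.48, SE 0.20). NOTCH1 had 490 and 445 normalized counts with SAG (ZNF521 and CTL), against 554 and 815 with DMSO. NOTCH3 had 351 and 229, against 381 and 607, and L1CAM had 197 and 169, against 222 and 444. In all 3 genes CTL cells with DMSO were the highest library. Values with the GC offset are not given for these lists. Also called lower were LRP1 (-0.89, SE 0.25), COL1A1 (-0.84, SE 0.31) and the lectican BCAN (brevican; -0.76, SE 0.29). LRP1 had 1973 and 1922 normalized counts with SAG (ZNF521 and CTL), against 2302 and 5619 with DMSO, so that CTL cells with DMSO again stood apart. None of the 12 AP-1 and ETS factors that act at MMP promoters was called for ZNF521, and 2 were called higher with SAG.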

How the data were processed

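RNA of 4 DAOY cultures was sequenced, 1 library for each group. The authors aligned paired reads to hg38 with STAR (2.7.0e in their processing notes) and deposited raw gene counts from STAR, together with a signal table of normalized counts, that is, counts divided by DESeq2 size factors (0.995, 0.887, 0.972 and 1.19 for CTL DMSO, CTL SAG, ZNF521 DMSO and ZNF521 SAG). The normalized table lacks 503 genes whose total count was 1. Libraries came from a strand-specific kit, but the annotation and strand setting of the counting are not given in the sources used here.

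Raw counts were tested with edgeR 4.0.16 (R 4.3.3) by the quasi-likelihood F-test with TMM scaling, an additive model of cells and treatment, and Benjamini-Hochberg adjustment over the 14970 genes that reached 10 counts in 2 or more libraries. The study's methods name a paired test without saying which libraries were paired, so the block by the other factor is a choice made here. The model holds no interaction, so its 1 residual degree of freedom reflects how far an effect differed between the 2 pairs of libraries. edgeR combined it with a prior of 11.7 degrees of freedom drawn from all genes. The p-values therefore do not measure spread between replicate cultures. A gene was called where the unadjusted p did not exceed 0.05, as in the study, and adjusted p-values are given beside it. The SE is the log2 fold change over the square root of F. Pair ratios came from normalized counts with exact Clopper-Pearson intervals. Levels and GC content used GENCODE v44 exons, and promoters came from RefSeq. Alternatives were RLE factors, library size alone, no filter, a minimum mean count (50), DESeq2 1.42.0, limma-trend 3.58.1 (prior count 2), no block, a GC offset (loess span 0.3) and each library left out with 1 factor. With a library left out, the effect of the factor not fitted is mixed into the fold changes. Named in full were all genes called, the 3 of each class with the highest level, all TIMPs, genes at least 1.5-fold apart in CTL DMSO, genes past 1.5-fold in a pair, and up to 6 related genes in each comparison, to which COL1A2, TGFA and IL6R were added after their values were seen. Genes and lists were chosen with earlier results of these data known. The fit was tested on simulated counts.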

Additional observations from a re-analysis of the deposited data

Results flagged for a closer look

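For 2 genes the ratio pointed one way in one pair of libraries and the other way in the other pair, with counting intervals that excluded 1 on both sides. The ZNF521 over CTL ratio of TIMP2 was 1.11 in SAG and 0.626 in DMSO. Its SAG over DMSO ratio was 1.09 in ZNF521 cells and 0.614 in CTL cells. The SAG over DMSO ratio of ADAM19 was 1.11 in ZNF521 cells and 0.770 in CTL cells. With 1 library for each group, the difference between the pairs was not tested, and in each of these 3 cases the pair with the ratio below 1 includes the CTL DMSO library.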

How the results depend on the processing

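At 1 library for each group, calls at an unadjusted p of at most 0.05 changed with the setting and in fits with a library left out. For ZNF521 over CTL the 7 called genes became 4 with DESeq2 and 1 to 16 with a library left out (3 without CTL DMSO, 16 without CTL SAG, 1 without ZNF521 DMSO, 2 without ZNF521 SAG). The median of -0.086 turned to 0.022 without CTL DMSO, within -0.18 to 0.022 over the libraries left out. For SAG over DMSO the 8 called genes became 2 with DESeq2, 1 with the GC offset and 2 to 22 with a library left out (8 without CTL DMSO, 3 without CTL SAG, 22 without ZNF521 DMSO, 2 without ZNF521 SAG), and the median of -0.14 stayed within -0.23 to -0.06. ADAM19 for SAG, at -0.12, was 0.26 without CTL DMSO and ranged over -0.50 to 0.26 with a library left out. Each fit with a library left out held only the factor compared, so the effect of the other factor is mixed into its values. How much of these changes came from that was not tested. The labels give no replicate numbers, so the other factor served as the block. With no replicate block the counts stayed at 7 and 8, but ADAMTS6 and MMP15 were not called for SAG. Over all genes, that fit called 163 higher and 281 lower for ZNF521, and 780 and 624 for SAG. With DESeq2, ADAM19, ADAMTS2, MMP2 and MMP15 were still called for ZNF521, and ADAMTS7 and ADAMTS10 for SAG. RLE factors, library size alone, no filter, a mean count of at least 50 and limma-trend were the other settings. They left the counts within 5 to 8 for ZNF521 and 7 to 11 for SAG. These are counts of 54 genes, but of 71 with no filter and of 35 with the minimum mean count. Over all genes, these settings called 292 to 594 higher and 346 to 665 lower for ZNF521. For SAG they called 733 to 1134 higher and 722 to 1062 lower. For genes under about 50 normalized counts, such as MMP7, MMP25 and TIMP4, the depth limits the precision.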
